A study of Mus musculus with 12 samples.

Results

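*Rogdi*, *Gsn*, *Pak1*, *Htr7*, *Scel* and *Cyp27a1* are 6 of the 17523 genes measured, brought together because their transcripts were low in effector memory T (TEM) cells with a history of GM-CSF expression. They were picked by name on the difference between YFP+ and YFP- TEM cells, with no numerical threshold, so their values in that comparison are given as a description and carry no test. All 6 were matched by Entrez identifier and all 6 passed the filter on low values. A further question was whether they varied with *Siglech* or with *Itgax* across the YFP- TEM libraries.

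RNA was sequenced from CD4+ T cells sorted out of the spleens of unimmunised *Gr/fr* mice (GM-CSF reporter/fate reporter, strain C57BL/6). All 4 groups carried the same alleles: a *Csf2* allele that drives iCre and BFP together with normal GM-CSF, and a Rosa26 eYFP allele that iCre switches on for good, so that YFP stays on in a cell that once expressed *Csf2* and in its descendants. YFP- and YFP+ naïve cells (CD44-) and YFP- and YFP+ TEM cells (CD44hi) were each represented by 3 libraries. The study sorted CD4+ T cells from *Gr/fr* mice aged 2 to 3 months, and any gate against cells other than T cells is not given in the sources used here. Replicates 1 and 2 of every group had *Xist* at 11867 normalized counts or more and replicate 3 at most 24.7, and *Ddx3y*, on the Y chromosome, reached 3869 or more only in the latter (the highest other value was 1.06), so replicate 3 was male in each group. Between 40974124 and 57822269 reads fell on genes per library. Values are normalized counts, the reads on a gene divided by the library's DESeq2 size factor. In these bulk samples, fewer cells of a type and less RNA per cell cannot be told apart.

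The 6 genes have unrelated functions. *Rogdi* encodes a partner of the rabconnectin proteins, which assemble the vacuolar proton pump (V-ATPase). *Gsn* encodes gelsolin, which severs and caps actin filaments, and *Pak1* encodes a kinase that acts below the small GTPases RAC and CDC42 on the same filaments. *Htr7* encodes a serotonin receptor coupled to adenylyl cyclase. *Scel* encodes sciellin, a precursor of the cornified envelope of the skin, and *Cyp27a1* encodes the mitochondrial enzyme that hydroxylates the side chain of cholesterol. *Siglech* encodes a sialic acid-binding lectin used as a mark of plasmacytoid dendritic cells (pDCs), and *Itgax* encodes CD11c, an integrin chain abundant on conventional dendritic cells (cDCs).

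On the mouse assembly GRCm38.p6, *Rogdi* (Entrez 66049) lies at chr16:5008729-5013574, *Gsn* (227753) at chr2:35256359-35307902 and *Pak1* (18479) at chr7:97788541-97912381. *Htr7* (15566) lies at chr19:35958415-36058133, *Scel* (64929) at chr14:103513061-103613346 and *Cyp27a1* (104086) at chr1:74713148-74737897. The 6 genes thus sit on 6 different chromosomes. *Gsn* overlaps the predicted gene *Gm39795* and *Pak1* overlaps *Gm39050*. It is not stated whether the counting used the strand of the reads, so reads of these pairs may not have been separated.

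The genes were low together, so their promoters were read as RefSeq gives them on GRCm38.p6, from 250 bases before to 50 bases after a transcript start. The 6 genes have 9 such windows. The E-box CAGGTG (or CACCTG on the other strand) was searched because it is a letter sequence that E proteins, such as the pDC factor TCF4, can bind. It was found in 1 window each of *Gsn* (chr2:35266494-35266793), *Pak1* (chr7:97788291-97788590) and *Scel* (chr14:103513091-103513390), and in that of *Siglech* (chr7:55767934-55768233). These 4 windows, all on the plus strand, are shown to let a reader see where the letters lie, with each searched motif in capitals (CAGGTG and, in *Siglech*, also GAGGAA as TTCCTC):
Gsn: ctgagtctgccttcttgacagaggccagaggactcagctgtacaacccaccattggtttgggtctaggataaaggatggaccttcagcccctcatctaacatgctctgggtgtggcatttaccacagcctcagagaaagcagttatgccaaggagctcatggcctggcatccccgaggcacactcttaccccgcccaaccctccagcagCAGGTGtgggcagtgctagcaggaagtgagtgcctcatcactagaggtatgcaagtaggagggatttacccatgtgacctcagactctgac
Pak1: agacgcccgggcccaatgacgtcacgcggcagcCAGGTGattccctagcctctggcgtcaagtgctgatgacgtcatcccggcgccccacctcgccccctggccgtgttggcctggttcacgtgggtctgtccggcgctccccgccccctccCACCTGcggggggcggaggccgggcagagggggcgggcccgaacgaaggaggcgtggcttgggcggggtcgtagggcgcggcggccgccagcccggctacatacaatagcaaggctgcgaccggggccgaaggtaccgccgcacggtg
Scel: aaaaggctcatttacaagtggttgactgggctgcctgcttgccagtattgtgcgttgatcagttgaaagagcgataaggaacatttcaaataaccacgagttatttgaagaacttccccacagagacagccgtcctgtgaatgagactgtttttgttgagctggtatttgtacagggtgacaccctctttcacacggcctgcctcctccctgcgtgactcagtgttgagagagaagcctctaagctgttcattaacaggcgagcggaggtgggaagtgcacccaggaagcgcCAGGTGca
Siglech: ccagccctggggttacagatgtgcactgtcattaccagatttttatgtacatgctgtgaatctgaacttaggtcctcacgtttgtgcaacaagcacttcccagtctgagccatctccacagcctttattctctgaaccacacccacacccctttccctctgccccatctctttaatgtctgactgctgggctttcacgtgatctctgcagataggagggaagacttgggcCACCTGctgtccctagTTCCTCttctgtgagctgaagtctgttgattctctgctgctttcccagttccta
Of all 32851 RefSeq promoter windows of this length, 20.2% hold CAGGTG, against 3 of the 9 member windows. GAGGAA, the core that ETS factors such as PU.1 recognise (TTCCTC on the other strand, with no overlap with the E-box), was in 1 window of *Gsn* and 1 of *Pak1*, against 28.3% of all windows. Neither the interferon-stimulated response element, searched as GAAA, any 2 bases and GAAA again (3.44% of all windows), nor TATAAA (13.6%) occurred, on either strand, in any of the 11 windows of the members, *Siglech* and *Itgax*. A match is a description of the letters and not a bound site.

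In TEM cells all 6 genes were high without and low with a GM-CSF history, and the 3 YFP- libraries lay above the 3 YFP+ libraries for each of them. Across the table, 14.3% of the genes tested had every YFP+ TEM library below every YFP- TEM library, and 3.5% were called lower in YFP+ TEM cells (546 of 15587, at an adjusted p of 0.05 or less and a log2 fold change of -1 or less, limma). The 6 genes had been chosen on this difference, so nothing is read from their own count. Ordered by how far they were lower, *Scel* stood at position 52 of the 546, *Htr7* at 73, *Cyp27a1* at 100, *Pak1* at 237, *Rogdi* at 354 and *Gsn* at 398, against 4 for *Siglech* and 65 for *Itgax*. The plot of all 12 libraries shows 3 forms of the pattern, which differ in where the naïve cells lie.

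**Figure D1:**
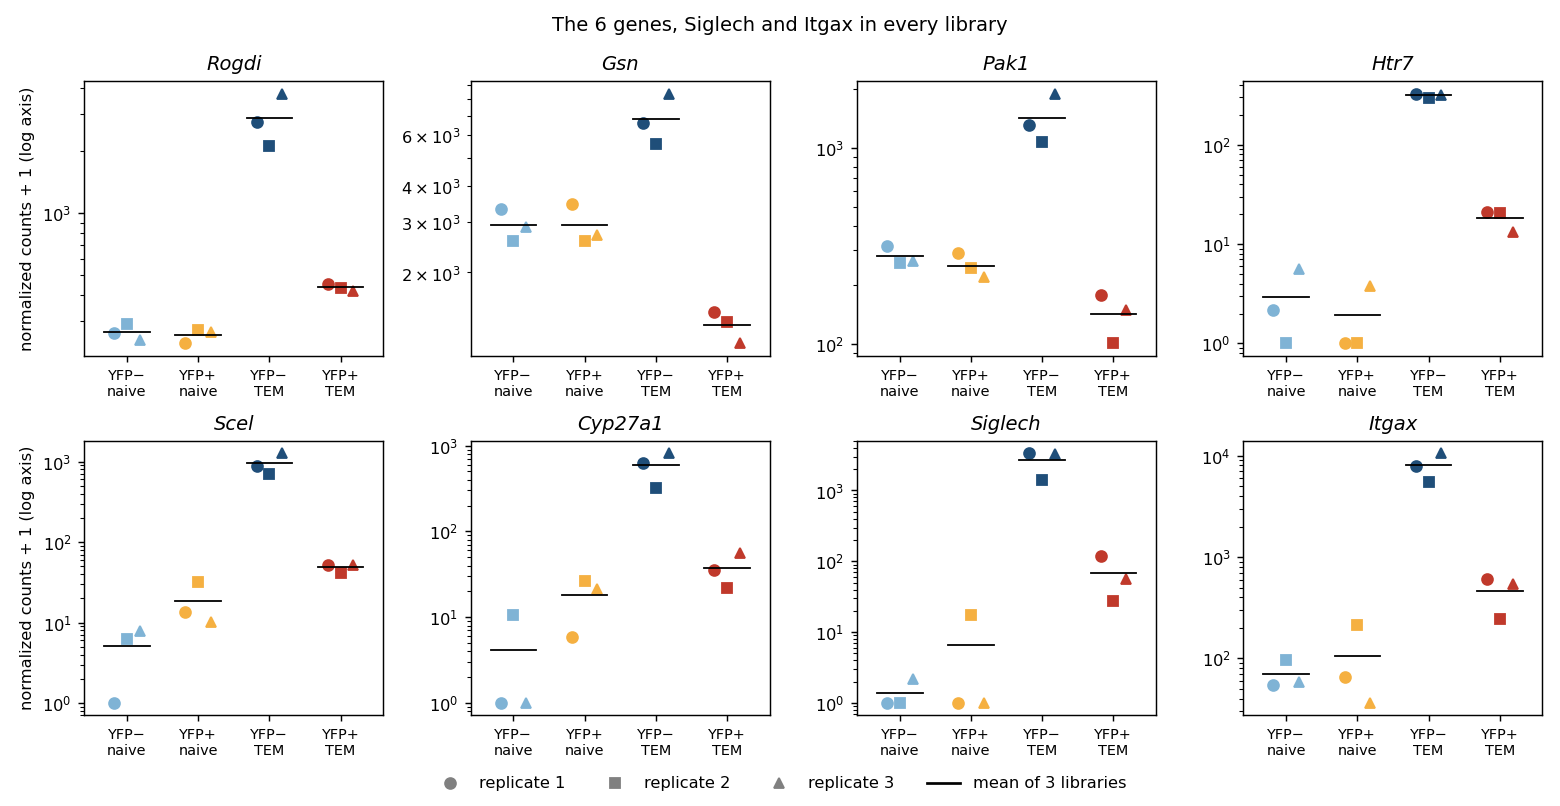
Normalized count plus 1 (log axis, a scale of its own in each panel) of the 6 genes, *Siglech* and *Itgax* in each of the 12 libraries. Points are libraries, with their shape giving the replicate number, and lines are means of 3. The YFP- TEM libraries lie above all others in every panel, and the YFP+ TEM libraries lie below the naïve ones for *Gsn* and *Pak1* only.

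*Gsn* and *Pak1*, the actin regulators, were abundant in naïve cells and lower in YFP+ TEM cells than in any naïve library. *Gsn* read 3321, 2567 and 2885 in YFP- naïve, 3459, 2577 and 2704 in YFP+ naïve, 6613, 5576 and 8385 in YFP- TEM and 1451, 1348 and 1132 in YFP+ TEM cells (replicates 1, 2 and 3). The naïve groups overlapped, while the YFP- TEM libraries were the highest and the YFP+ TEM libraries the lowest of the 12. Its mean in YFP- TEM cells was 6858 ± 1420 (SD, n = 3) against 1310 ± 163 in YFP+ TEM cells, a 5.23-fold difference (log2 -2.37, SE 0.16). Against naïve cells of the same YFP status, the mean of *Gsn* was 2.35 times as high in YFP- TEM cells and 0.450 times as high in YFP+ TEM cells.

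*Pak1* read 313, 259 and 265 in YFP- naïve, 289, 242 and 219 in YFP+ naïve, 1317, 1068 and 1897 in YFP- TEM and 176, 99.4 and 147 in YFP+ TEM cells. The order of the groups was that of *Gsn*, with a wider step. The means in TEM cells were 1427 ± 425 and 141 ± 38.7 (SD, n = 3), so that YFP+ cells held 9.87% of the YFP- level (log2 -3.33, SE 0.24). Its mean was 5.12 times the naïve one in YFP- TEM cells and 0.564 times in YFP+ TEM cells. For 18.1% of all genes tested the YFP+ TEM libraries lay below all 6 naïve libraries, and for 29.6% the YFP- TEM libraries lay above them. Both held for 16 genes (0.103%), *Gsn* and *Pak1* among them. This order requires every YFP+ TEM library to lie below every YFP- TEM library, as for 2232 of the genes tested. *Gsn* and *Pak1* were chosen on that difference, so their place among the 16 is a description. The others, listed after their values were seen, were *Ctss*, *Sat1*, *Dpy19l1*, *Bst2*, *Clic4*, *Lipe*, *Lair1*, *Pik3cb*, *Amz1*, *Pdzd4*, *Card9*, *Atg4c*, *Srl* and *Slc36a3*.

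*Rogdi* had a moderate level in naïve cells and kept a level slightly above it in YFP+ TEM cells. It read 264, 290 and 242 in YFP- naïve, 234, 273 and 265 in YFP+ naïve, 2740, 2099 and 3779 in YFP- TEM and 453, 436 and 420 in YFP+ TEM cells. The YFP+ TEM libraries were the closest to each other of any group (436 ± 16.4, SD, n = 3) and lay between the naïve and the YFP- TEM libraries (2873 ± 848) without touching either. YFP+ TEM cells thus held 15.2% of the YFP- TEM level (log2 -2.67, SE 0.18). Against naïve cells, the mean was 10.8 times as high in YFP- TEM cells and 1.70 times as high in YFP+ TEM cells.

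*Htr7*, *Scel* and *Cyp27a1* were close to the limit of detection in naïve cells. *Htr7* was read 1, 0 and 4 times in the YFP- naïve libraries and 0, 0 and 3 times in the YFP+ naïve ones. In normalized counts it stood at 326, 295 and 319 in YFP- TEM and at 20.2, 19.7 and 12.4 in YFP+ TEM cells, so that the TEM groups lay apart from each other and above all naïve libraries. The TEM means were 313 ± 16.4 and 17.4 ± 4.39 (SD, n = 3), an 18-fold difference (log2 -4.12, SE 0.67). No fold is given against YFP+ naïve cells, where each library had 3 reads or fewer.

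*Scel* read 0, 5.30 and 6.91 in YFP- naïve, 12.4, 30.5 and 9.30 in YFP+ naïve, 878, 696 and 1275 in YFP- TEM and 51.6, 40.4 and 50.4 in YFP+ TEM cells. Its 4 groups did not overlap. The TEM means were 950 ± 296 and 47.4 ± 6.14 (SD, n = 3), which leaves 4.99% in YFP+ cells (log2 -4.26, SE 0.68), the smallest share among the 6 genes.

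*Cyp27a1* read 0, 9.55 and 0 in YFP- naïve, 4.95, 25.6 and 20.5 in YFP+ naïve, 631, 320 and 817 in YFP- TEM and 34.4, 20.7 and 55.1 in YFP+ TEM cells. Here the YFP+ TEM libraries overlapped the YFP+ naïve ones, and only the YFP- TEM libraries stood apart. The TEM means were 589 ± 251 and 36.7 ± 17.3 (SD, n = 3), a 16.0-fold difference (log2 -3.97, SE 0.87). YFP+ TEM libraries lay above all 6 naïve libraries for *Rogdi*, *Htr7* and *Scel*, as they did for 25.3% of all genes tested.

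Levels of different genes are compared per length. In YFP- TEM cells the mean TPM (which scales reads per exon length to one fixed total in every library) was 191 ± 39.5 for *Gsn*, 108 ± 31.8 for *Rogdi*, 33.4 ± 10.4 for *Scel*, 31.9 ± 9.44 for *Pak1*, 23.9 ± 10.2 for *Cyp27a1* and 8.12 ± 0.494 for *Htr7* (SD, n = 3). *Scel*, *Pak1* and *Cyp27a1* are neighbours in this order that did not differ beyond their spread. In YFP+ TEM cells *Gsn* (36.2 ± 3.84 TPM) and *Rogdi* (16.3 ± 0.649) still led, *Pak1* stood at 3.10 ± 0.706, *Scel* at 1.65 ± 0.160, *Cyp27a1* at 1.48 ± 0.708 and *Htr7* at 0.447 ± 0.109. *Scel* and *Cyp27a1* overlapped there. On the same scale *Itgax* went from 147 ± 47.1 to 8.37 ± 3.20 and *Siglech* from 69.9 ± 29.0 to 1.68 ± 1.09.

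Markers of dendritic cells were low in the same YFP+ TEM libraries. Of the 15 pDC markers tested, 11 fell in YFP+ TEM cells and 0 rose at an adjusted p of 0.05 or less (limma), with a median log2 fold change of -3.12 against -0.01 over all genes tested. With edgeR 11 fell and 0 rose, and with DESeq2 12 fell and 1 rose. The one that rose was *Ccr9*, named after its values were seen, from 975 to 2442 normalized counts (log2 1.28 in limma). Of the 14 cDC markers, 12 fell and 0 rose (median -3.79). The share of all genes that fell at this adjusted p was 4.67%, and 2.3% rose. *Cox6a2*, *Klk1*, *Siglech* and *Cd300c* fell most among pDC markers, with log2 fold changes of -5.84, -5.57, -5.45 and -4.77, and *Clec10a*, *Clec9a*, *Cd209a* and *Itgax* among cDC markers, with -5.39, -4.42, -4.23 and -4.15. The summed pDC markers ranged from 23151 to 36524 normalized counts in YFP- TEM, 13717 to 15323 in YFP+ TEM, 9359 to 10072 in YFP- naïve and 9662 to 10444 in YFP+ naïve cells. For cDC markers the ranges were 177427 to 370709, 12761 to 31690, 3482 to 5776 and 4302 to 12397, in the same order of groups. The pDC sum did not follow its most depleted genes. Its largest mean in YFP+ TEM and both naïve groups was that of *Pacsin1*, named after its values were seen. *Pacsin1* stood at 5142, 4473, 6099 and 6359, and *Siglech* at 2681, 66.8, 0.384 and 5.58, again in that order of groups. *Klk1* was at 0 in all YFP- naïve libraries and no marker of either list was at 0 in a TEM group. Whether the transcripts of these lists came from dendritic cells, and what part such cells had in the levels of the 6 genes, was not tested.

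The other marker lists had smaller counts or counts in the other direction. Of 13 monocyte and macrophage markers, 3 fell in YFP+ TEM cells (*Itgam*, *Adgre1* and *Cd68*, log2 fold changes of -3.55, -2.99 and -2.67) and 0 rose, while the median over the list was 0.71, and the summed list ranged from 9347 to 15987 in YFP- TEM and from 4524 to 9894 in YFP+ TEM cells. None of the 10 T cell markers passed the test in either direction (1 at an unadjusted p of 0.05 or less, 0 with edgeR or DESeq2), with a median log2 fold change of 0.15 and sums of 299762 to 349631 in YFP- TEM and 332409 to 363310 in YFP+ TEM cells. Of 5 NK cell markers 4 rose, namely *Klre1*, *Klrb1c* and *Klra4* (log2 fold changes of 3.94, 3.03 and 2.66) and *Ncr1*, which was at 0 in all YFP- TEM libraries and at 32.6 ± 25.1 normalized counts in YFP+ TEM cells (SD, n = 3). With edgeR or DESeq2 3 of them rose, and the call for *Klra4* was lost. Of 10 B cell markers 2 rose (*Ebf1* and *Cd79a*, 2.94 and 1.91). For the 4 neutrophil markers (median 3.29) and the 5 erythroid and platelet markers (median 1.56) 0 passed in limma, with 3 and 0 at an unadjusted p of 0.05, 0 and 0 with edgeR, and 1 and 0 with DESeq2. When the replicate number was a block, the pDC marker *Ccr9* rose, as with DESeq2. The T cell marker *Bcl11b* then also rose and the NK cell marker *Eomes* also fell, all named after their values were seen. The pan-T cell transcript *Cd3e* stood at 32339 or more normalized counts in every TEM library, and *Cd44* was at 21778 or more in TEM and at most 3372 in naïve libraries.

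Across the YFP- TEM libraries, 5 of the 6 genes had a profile nearer to *Itgax* than to *Siglech*, and *Htr7* among these was nearly level. Each gene was set on the log2 scale of normalized counts plus 1 and centred on its own mean over the 3 libraries. *Itgax* then stood at 0.04, -0.50 and 0.46 in replicates 1, 2 and 3, rising clearly above its mean only in replicate 3. *Siglech* stood at 0.43, -0.82 and 0.39, as high in replicate 1 as in replicate 3. The 2 genes thus parted in replicates 1 and 2 and nearly met in replicate 3, with a root mean square difference of 0.29.

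*Rogdi* stood at -0.03, -0.41 and 0.44, *Pak1* at -0.07, -0.38 and 0.45 and *Scel* at -0.07, -0.40 and 0.47. These 3 profiles were almost the same, with differences of 0.03 between *Rogdi* and *Pak1*, 0.03 between *Rogdi* and *Scel* and 0.02 between *Pak1* and *Scel*. Their root mean square differences from *Itgax* were 0.07, 0.10 and 0.09, against 0.36, 0.39 and 0.38 from *Siglech*. *Gsn* had the same form with a smaller swing (-0.03, -0.28 and 0.31) and differed by 0.16 from *Itgax* and by 0.41 from *Siglech*.

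*Cyp27a1* and *Htr7* stood apart from these 4, in opposite ways. *Cyp27a1* stood at 0.20, -0.77 and 0.57, the widest swing of the 6, and was the one gene nearer to *Siglech* (0.17) than to *Itgax* (0.19), by a narrow margin. *Htr7* stood at 0.06, -0.09 and 0.03 and was nearly level, so that it was far from both (0.35 from *Itgax* and 0.52 from *Siglech*). The measure includes the size of the swing, which was larger for *Siglech*, so a level gene comes out nearer to *Itgax*. The highest YFP- TEM library exceeded the lowest 1.11 times for *Htr7*, 1.5 for *Gsn*, 1.78 for *Pak1*, 1.80 for *Rogdi*, 1.83 for *Scel* and 2.55 for *Cyp27a1*, against 1.94 for *Itgax* and 2.38 for *Siglech*. Counting error alone (1 SD on the log2 scale) was at most 0.08 for *Htr7*, 0.07 for *Cyp27a1* and 0.05 for the other 4 genes.

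**Figure D2:**
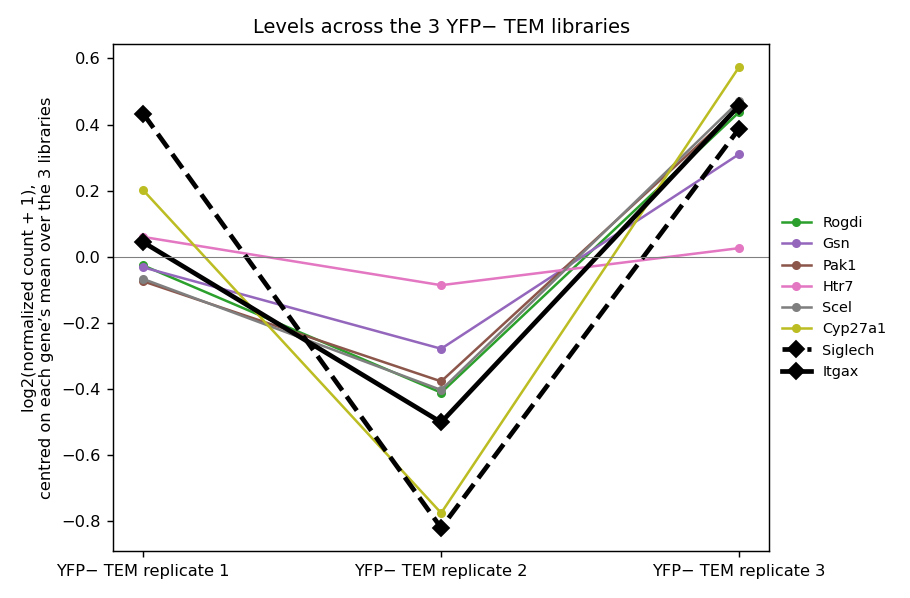
Log2 of the normalized count plus 1 in the 3 YFP- TEM libraries, centred on each gene's mean over them, for the 6 genes (thin coloured lines), *Itgax* (solid black) and *Siglech* (dashed black). The lines only guide the eye and imply no order. *Rogdi*, *Pak1* and *Scel* lie close to *Itgax* in every library (root mean square differences of 0.07, 0.10 and 0.09), *Cyp27a1* lies between *Itgax* and *Siglech* in replicate 1, and *Htr7* is nearly level.

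The leaning to *Itgax* was common among genes low in YFP+ TEM cells. Of the other 544 genes called lower, 454 (83.5%) were nearer to *Itgax* and 90 (16.5%) to *Siglech*, so 5 of 6 is close to that background. The share over all genes tested was not computed. Replicate 3 was the highest and replicate 2 the lowest for *Rogdi*, *Gsn*, *Pak1*, *Scel* and *Cyp27a1*, an order held by 73.1% of the 546 genes called lower and by 20.7% of all genes tested. The same order was found in the summed cDC markers (246515, 177427 and 370709 normalized counts in replicates 1, 2 and 3) and the summed pDC markers (34801, 23151 and 36524), and the reverse order in the summed T cell markers (318756, 349631 and 299762). Most of the cDC sum was *Cd74*, *H2-Ab1*, *H2-Eb1* and *H2-Aa*, named after their values were seen (YFP- TEM means of 106272, 51478, 42688 and 37665). *Siglech* itself was highest in replicate 1. Replicate 3 was also the only male one. Neither the marker sums nor the sex was tested as a source of the order, and 3 libraries allow no test of a profile. Without YFP- TEM replicate 2, *Htr7* in place of *Cyp27a1* was the gene nearer to *Siglech*, and in the other 7 alternatives it was *Cyp27a1* alone.

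Set against *Itgax* within each library, the genes divided in the same way as by their naïve level. *Scel* stood at 11, 12.8 and 12 normalized counts per 100 of *Itgax* in YFP- TEM and at 8.5, 16.5 and 9.28 in YFP+ TEM cells, *Cyp27a1* at 7.93, 5.87 and 7.71 and then 5.67, 8.44 and 10.2, and *Htr7* at 4.10, 5.41 and 3.01 and then 3.33, 8.02 and 2.28. For these 3 genes the groups overlapped, and the means of the ratio in YFP+ cells were 0.955, 1.13 and 1.09 times those in YFP- cells. *Pak1* stood at 18 ± 1.51 and 32.2 ± 7.24 per 100 of *Itgax* (SD, n = 3), *Rogdi* at 36.2 ± 2.07 and 110 ± 58.7 and *Gsn* at 88.2 ± 12.3 and 332 ± 189, in YFP- and YFP+ cells, with no overlap between the groups. Their mean ratios were 1.79, 3.04 and 3.77 times as high in YFP+ as in YFP- cells. They are also the 3 with a level of 219 normalized counts or more in every naïve library. The fall itself was 10.1-fold for *Pak1*, 6.58 for *Rogdi* and 5.23 for *Gsn*, against 17.2 for *Itgax*. *Itgax* stood at position 65 of the 546 genes called lower, so a gene with no difference also has a higher ratio to it. These ratios include the difference the genes were chosen on. The share of all genes tested with no overlap was not computed.

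*Siglech* was depleted more, at position 4 of the 546 genes called lower, so a gene with no difference again has a higher ratio to it. The mean ratio of each of the 6 genes was higher in YFP+ TEM cells, from 2.49 times for *Scel* to 9.77 times for *Gsn*. The groups overlapped for *Scel* and *Htr7* and not for the others. The share of all genes tested was not computed here either, so nothing is read from these counts. *Siglech* itself stood at 33.0 ± 8.43 per 100 of *Itgax* in YFP- and at 13.5 ± 5.18 in YFP+ TEM cells (SD, n = 3). YFP+ TEM replicate 2, which had the least *Itgax* (245 normalized counts against 607 and 543) and the least *Siglech* (26.9 against 118 and 55.1), gave the highest ratio to both for each of the 6 genes except *Cyp27a1*. Without that library, an alternative chosen after seeing the data, the means against *Siglech* were 5.80 times as high in YFP+ cells for *Gsn*, 4.97 for *Rogdi* and 1.47 for *Htr7* (2.79 with it). Against *Itgax* they were then 2.54 times as high for *Gsn*, 2.10 for *Rogdi*, 1.56 for *Pak1*, 1.10 for *Cyp27a1* and 0.672 for *Htr7*. The *Scel* ratio to *Itgax* was then 0.744 times that in YFP- cells, with no overlap.

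**Figure D3:**
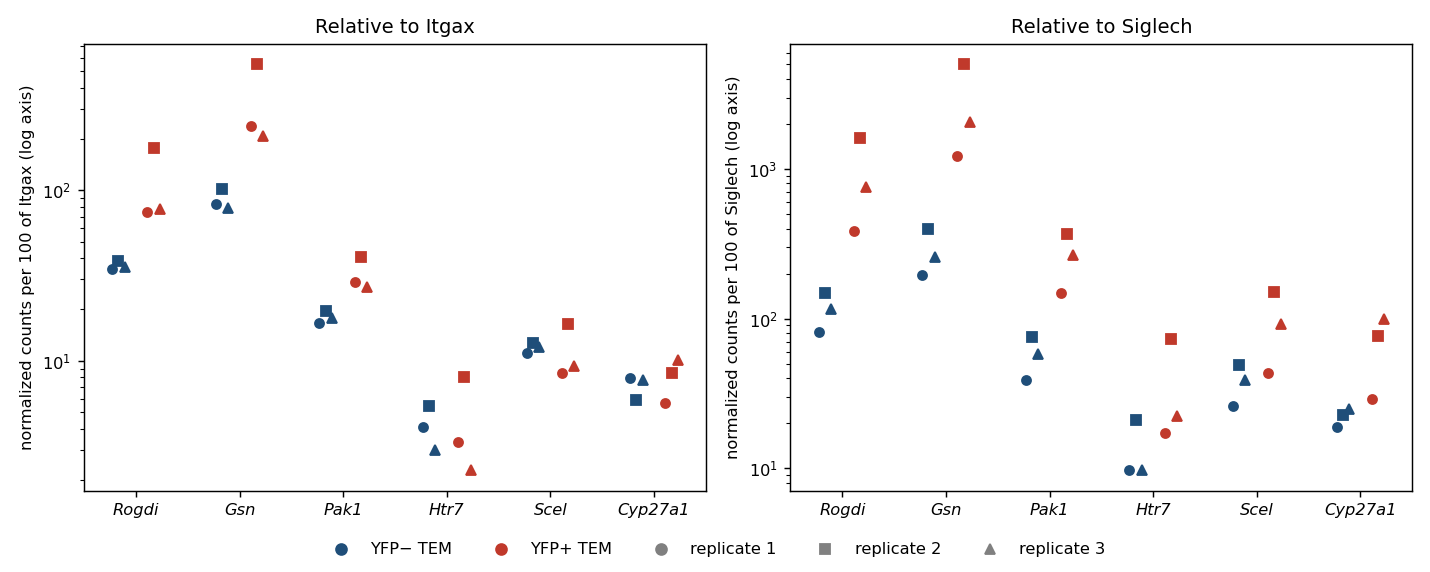
Normalized counts of each gene per 100 of *Itgax* (left) or of *Siglech* (right) in the same library, on log axes, for the 3 YFP- and the 3 YFP+ TEM libraries. On the left the groups overlap for *Htr7*, *Scel* and *Cyp27a1* and are apart for *Rogdi*, *Gsn* and *Pak1*. On the right every mean is higher in YFP+ cells.

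Over all 12 libraries the genes with the most similar pattern were found by the root mean square difference of centred log2 values, a measure that includes the difference the 6 genes were chosen on. Nearest to *Rogdi* were *Tctex1d2* (0.25), *Tcf4* (0.27) and *Ccdc88a* (0.28). *Tcf4*, the E protein, went from 1887 normalized counts in YFP- TEM to 394 in YFP+ TEM cells, with 181 and 202 in the naïve groups, the same form as *Rogdi*. Nearest to *Gsn* were *Atg4c* (0.28), *Srl* (0.33) and *Slc36a3* (0.34), 3 of the 16 genes with YFP- TEM above and YFP+ TEM below all naïve libraries. Nearest to *Pak1* were *Itgam* (0.32), which encodes the integrin chain CD11b, *Ceacam1* (0.33) and *Basp1* (0.35).

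*Scel* was nearest to *Mefv* (0.45), which encodes the inflammasome sensor pyrin, *Ear2* (0.49) and *Csf2rb2* (0.51). *Cyp27a1* was nearest to *Mcemp1* (0.63), *Nlrp3* (0.69), another inflammasome sensor, and *Ear2* (0.72), so *Ear2* was shared by both. For *Htr7* the nearest genes, *Bex6* (0.87), *Gm5086* (0.89) and *Arhgap22* (0.94), were the least close, and all 3 were near 0 in naïve cells as well. Among the members, the closest pair over 12 libraries was *Gsn* and *Pak1* (0.53), followed by *Rogdi* and *Pak1* (0.75), while *Scel* and *Cyp27a1* differed by 1.00. *Scel* was nearer to *Itgax* (0.95) than to *Cyp27a1*.

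The comparison of YFP+ with YFP- naïve cells shares no library with the one that chose the genes, so it can be tested. Its spread, however, was estimated over all 12 libraries, the TEM ones included. At an adjusted p of 0.05 or less 0 of the 6 genes passed (limma, adjusted over 15587 genes, and 0 with edgeR or DESeq2), and 1 gene (0.00642%) was called in the whole table. *Rogdi*, *Gsn* and *Pak1* were estimated closely, with log2 differences of -0.04 (95% interval -0.43 to 0.35), -0.01 (-0.36 to 0.34) and -0.16 (-0.69 to 0.36). For *Htr7* the interval was wide (-2.0 to 0.89), with 5 reads in YFP- and 3 in YFP+ naïve cells. *Htr7* passed the filter on low values through its TEM libraries alone, so its naïve test says little, and the other 5 genes reached the filter in naïve libraries.

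*Scel* and *Cyp27a1* had higher estimates in YFP+ naïve cells, which did not pass the test. For *Scel* the log2 difference was 2.15 (95% interval 0.67 to 3.62, adjusted p = 1.0 in limma) and for *Cyp27a1* 2.78 (0.89 to 4.66, adjusted p = 1.0). Both were higher in 3 of 3 replicate pairs. The unadjusted interval excluded 0 for these 2 of the 6 genes, as it did for 3.32% of all genes tested (518), and 5.38% had naïve groups that did not overlap, as *Scel* did. That interval takes its spread from all 12 libraries. With only the 6 naïve libraries compared, the unadjusted p was 0.0633 for *Scel* and 0.0538 for *Cyp27a1* (limma), so 0 was no longer excluded. Summed over the group, *Scel* had 11 reads in YFP- naïve (95% Poisson interval 5.49 to 19.7) and 51 in YFP+ naïve cells (38.0 to 67.1), and *Cyp27a1* had 9 (4.12 to 17.1) and 52 (38.8 to 68.2). These intervals cover counting error only. At 17.4 and 17 normalized counts the YFP+ naïve means were below those of YFP+ TEM cells (47.4 and 36.7).

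YFP+ naïve replicate 2 was the highest naïve library for both genes, with 30.5 normalized counts of *Scel* and 25.6 of *Cyp27a1*. It also held 16.7 of *Siglech*, against 1.15 or less in the other naïve libraries, 212 of *Itgax* against 95.5 or less, 1601 of the macrophage receptor *Csf1r* against 220 or less, and 9743 of the summed monocyte and macrophage markers against 1810 or less. What part those transcripts had in the naïve difference was not tested. Without that library the log2 differences were 1.67 for *Scel* and 2.36 for *Cyp27a1*, with adjusted p = 1.0 for each (limma). The estimates also depended on libraries with few or no reads: *Scel* was at 1.21 without YFP- naïve replicate 1, and *Cyp27a1* at 3.91 without YFP- naïve replicate 2 and at 3.45 without YFP+ naïve replicate 1. With prior counts of 5 and 0.1 in place of 1 they were 1.28 and 3.30 for *Scel* and 1.47 and 4.92 for *Cyp27a1*.

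**Figure D4:**
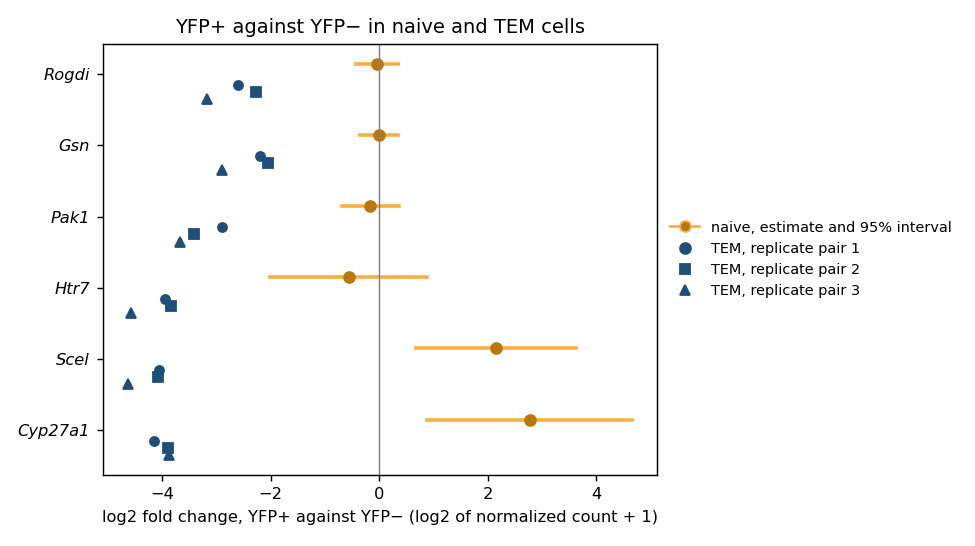
Log2 fold change of YFP+ against YFP- cells for the 6 genes. Orange points and lines are the naïve estimate and its 95% interval (limma, 3 libraries a group), and blue symbols are the 3 replicate pairs of TEM cells, shown as a description because the genes were chosen on them. The naïve intervals, from the fit of all 12 libraries, include 0 for *Rogdi*, *Gsn*, *Pak1* and *Htr7* and lie above 0 before adjustment for *Scel* and *Cyp27a1*. The TEM pairs lie between -2.05 and -4.63.

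The partners of the 6 genes in their own pathways mostly showed no difference between YFP+ and YFP- TEM cells. Of the 15 V-ATPase subunits and assembly factors listed with *Rogdi*, 0 passed an adjusted p of 0.05 in either direction (limma, median log2 fold change -0.0028), with 0 in edgeR or DESeq2 and 1 at an unadjusted p of 0.05. Of the 7 other gelsolin family genes 0 passed in limma (1 unadjusted, 0 with edgeR and 1 with DESeq2), among them *Capg*, *Flii* and *Svil*, named after their values were seen, with log2 fold changes of -0.23, 0.02 and 0.20. With the replicate number as a block in limma, 1 gene of each list passed, both named after their values were seen. The V-ATPase subunit *Atp6v0a2* rose (log2 0.22, adjusted p = 0.0294 in limma) and the villin-like *Vill* fell (log2 -0.71, adjusted p = 0.0465 in limma). With edgeR and that block *Svil* also rose. In the naïve comparison 0 genes passed in any of the 6 pathway lists or the 8 marker lists (limma, with 3 pathway genes and 6 markers at an unadjusted p of 0.05, 0 in any list with edgeR and only the pDC marker *Runx2* with DESeq2).

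Among the 14 tested genes around *Pak1*, from the RAC and CDC42 GTPases to the LIM kinases and cofilin, 0 fell and 1 rose, and the median log2 fold change was 0.02. The one that rose was the related kinase *Pak6*, from 93.0 ± 18.9 in YFP- to 885 ± 374 normalized counts in YFP+ TEM cells (SD, n = 3, log2 3.16, SE 0.47, adjusted p = 0.00133 in limma). *Pak6* thus went against *Pak1*. With a prior count of 0.1 in place of 1 its adjusted p was 0.0708.

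Serotonin genes were scarcely present. Of the 16 other genes on that list 5 were in the table and 2 passed the filter, the receptor *Htr2a* and the degrading enzyme *Maoa*, with 0 past the test in limma, edgeR or DESeq2 and 0 at an unadjusted p of 0.05. *Htr2a*, named after its values were seen, stood at 27.2 normalized counts in YFP- and 29.2 in YFP+ TEM cells. Of the 12 other cornified envelope genes 7 were in the table and 5 were tested, and 1 of these fell. It was *Tgm2*, tissue transglutaminase, which is not particular to skin: 5383 ± 1315 in YFP- and 702 ± 247 in YFP+ TEM cells (SD, n = 3, log2 -2.98, adjusted p = 0.00379 in limma). The desmosomal *Jup*, named after its values were seen, also fell with the replicate number as a block (338 and 163 normalized counts, adjusted p = 0.0336).

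The sterol genes listed with *Cyp27a1* went both ways. Of 10 tested 2 fell and 2 rose (limma). *Scarb1*, the receptor that takes up cholesterol from HDL, fell from 1013 ± 201 to 456 ± 48.9 normalized counts (log2 -1.14, adjusted p = 9.4e-04). *Hsd3b7*, which encodes an enzyme of bile acid synthesis, fell from 221 ± 42.4 to 85.6 ± 5.87 (log2 -1.34, adjusted p = 0.04). The call for *Hsd3b7* was lost without any 1 of the 6 TEM libraries, with adjusted p from 0.0523 to 0.162. *Abca1*, the cholesterol exporter, rose from 765 ± 108 to 2154 ± 734 (log2 1.43, adjusted p = 0.00459) and *Mylip*, which marks the LDL receptor for breakdown, from 2122 ± 31.1 to 3471 ± 326 (log2 0.71, adjusted p = 0.0018). Over the 6 pathway lists 3 genes fell and 3 rose, and with the replicate number as a block 5 fell and 4 rose.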

How the data were processed

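CD4+ T cell RNA was measured in 12 libraries, 3 per group. Reads were mapped by the authors to mm10 (DRAGEN), counted on genes (Rsubread) and scaled (DESeq2). The deposited signal consists of counts divided by size factors, and the annotation, strand setting and versions are not given in the sources used here. Whole reads were recovered for 100% of values (within 0.01 of a read), and 0 columns were left unused. Symbols came from RefSeq on GRCm38.p6 (16749 genes) and exon lengths from GENCODE M21 (15018 genes).

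The 15587 genes that reached 5 normalized counts in 3 or more libraries were tested on log2 of the normalized count plus 1, by limma 3.58.1 under R 4.3.3 (4 group means, eBayes with trend, 8 residual degrees of freedom, Benjamini-Hochberg adjustment). A call needed an adjusted p of at most 0.05 and a fold change of at least 1 on the log2 scale, in either direction. The script was tested on simulated data. Alternatives were other prior counts, filters, scalings, edgeR 4.0.16, DESeq2 1.42.0, the replicate block and leaving out each library.

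The members and gene lists were chosen with earlier results of these data known. Named genes are the 6 members, *Siglech*, *Itgax*, the 3 nearest genes of each member, and at most 4 genes per list and direction at an adjusted p of 0.05 or less. *Xist*, *Ddx3y*, *Cd3e*, *Cd44* and *Csf1r* were added as checks after their values were seen. Same-numbered replicates appear to pair: after removal of group means, same-numbered YFP+ and YFP- libraries correlated at 0.180, 0.338 and 0.356 in TEM and at 0.306, 0.491 and 0.360 in naïve cells. Differently numbered ones correlated at -0.297 to -0.036 in TEM and at -0.351 to 0.018 in naïve cells. Whether the shared factor was the animal was not tested, and the main fit used no pairing. The study gives 3 mice for the sort but does not tie libraries to animals, and p-values measure the spread between these libraries.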

Additional observations from a re-analysis of the deposited data

Results flagged for a closer look

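*Scel* and *Cyp27a1* had estimates of opposite sign in naïve and TEM cells. Neither passed the test in naïve cells (adjusted p = 1.0 in limma). In naïve cells every replicate pair was higher with YFP, with log2 fold changes of 2.15 for *Scel* and 2.78 for *Cyp27a1*, and in TEM cells every pair was lower. The difference between the contrasts was not tested, and its direction in TEM cells was fixed by the choice of the genes.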

How the results depend on the processing

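The log2 differences of the 6 genes in TEM cells kept their sign in all 18 alternatives each, and in naïve cells 0 of the 6 genes passed an adjusted p of 0.05 in any of 18. In naïve cells 1 gene of the whole table was called, against 0 with a log2 fold change of 2 or more or with only the 6 libraries compared, 2 with a prior count of 0.1, 2 with the replicate block, 8 with DESeq2, and 0 to 1 when a library was left out. EdgeR with the replicate block, chosen after seeing the data, called 2. Genes called lower in TEM cells numbered 546. They numbered 387 (prior count of 0.1) to 728 (no fold change threshold) over the 14 alternatives other than leaving out a library, with 621 under the replicate block and 648 with DESeq2. When a library was left out they numbered 350 to 532, the smallest number without YFP- TEM replicate 3. Pathway genes that fell numbered 3, with 5 under the replicate block, DESeq2 or edgeR with the block, and 2 to 3 when a library was left out. Those that rose numbered 3, with 5 under edgeR with the block. In limma the block changed the call of no marker or pathway gene beyond those named above. Some naïve differences near 0 turned positive when a library was left out, without passing the test: *Rogdi* (from -0.11 to 0.02, at 0.0223 with YFP- replicate 2 left out and 0.0236 with YFP+ replicate 1 left out), *Gsn* (from -0.14 to 0.09, at 0.0859 with YFP- replicate 1, 0.0726 with YFP+ replicate 2 and 0.0379 with YFP+ replicate 3 left out) and *Htr7* (from -1.20 to 0.09, the latter, 0.0880, with YFP- replicate 3 left out). The cause was not tested. The adjusted p over all alternatives ranged from 0.156 to 1.0 for *Scel* and from 0.427 to 1.0 for *Cyp27a1*. Depth limits *Htr7*, *Scel* and *Cyp27a1* in naïve cells, where a library held at most 31 reads of any of them.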
